A study of Bos taurus with 2 samples.

Results

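The genes of cholesterol and fatty acid synthesis were examined in the *longissimus thoracis* (LT) muscle of Japanese Black fetuses. The group was fixed as a list of gene names, drawn up with earlier results of these data known, and holds 33 genes, of which 18 encode enzymes of sterol synthesis, 6 encode regulators around the sterol regulatory element-binding proteins (SREBPs) and 9 encode enzymes of fatty acid synthesis. Of these, 29 had a probe whose accession matched the symbol, and 28 had a value, among 19554 genes with a value on the arrays. Of the 19554, 10637 had a symbol, and each accession without one was counted as a gene of its own. Ranks and shares of all genes include these unnamed accessions. The genes *INSIG2*, *STARD4*, *FASN* and *FADS1* had no matched probe and were not analysed here. *LSS*, the cyclase that makes lanosterol, has 1 probe, which exceeded background clearly in HN but not in LN, so no fold could be given. In the 4 alternative settings that gave *LSS* a value it was lower in LN, with a log2 LN/HN (the LN value minus the HN value) of -0.033 after the normexp background correction and -0.15 in the others.

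The low-nutrition (LN) dams received 60% of their nutritional requirement during gestation and the high-nutrition (HN) dams 120%, and the fetuses were taken at 8.5 months. All pregnancies came from male-sorted semen of a single sire. Total RNA of 4 fetuses per group was pooled, those with the lowest bodyweight in the LN group and those with the highest in the HN group, and the 2 pools were each measured once, on a bovine Agilent array with a single dye. The pools therefore differ in diet and in selection by bodyweight, which cannot be told apart, and no test or spread between fetuses can be given. The study checked by PCR in single fetuses some genes that its arrays put higher in LN. Most of those it examined from its enriched pathways did not differ significantly between the groups.

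Cholesterol is built from acetyl units through mevalonate, isoprenoid units, squalene and lanosterol. Fatty acids are built from malonyl units and then elongated and desaturated. Both routes are controlled by the SREBPs, which are held in the endoplasmic reticulum as precursors bound to SCAP, and INSIG proteins retain this complex when sterols are abundant. When sterols fall, SCAP carries the precursor to the Golgi, where it is cleaved, and the released factor activates the genes of the enzymes. SREBP-2, encoded by *SREBF2*, acts mainly on sterol genes, and SREBP-1, encoded by *SREBF1*, mainly on lipogenic genes. In muscle, lipogenic enzymes are expressed in the fibers and in the adipocytes between them.

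Signals are given as quantile-normalized log2 intensities, and a difference as log2 LN/HN, the LN value minus the HN value. A gene value is the mean over its probes that were well above background on at least 1 array. For 42 probes printed several times, the log2 ratios of single spots had an SD of 0.085, or 1.12-fold at 95%. The median SD between probes of a gene was 0.099 over 7139 genes. For member probes measured on both arrays, the scanner software's own error of the log2 ratio had a median of 0.20 and a range of 0.20 to 0.38. These errors describe the arrays and not the variation between animals. Of all spots, 74.5% in HN and 70.9% in LN were called well above background. The tissue label was checked with muscle fiber genes, and *ACTA1*, skeletal muscle actin, had log2 signals of 17.57 in HN and 17.53 in LN.

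Of the 28 members with a value, 24 were higher in the LN pool and 4 were lower. Over the alternative settings, 23 or 24 were higher and 4 to 6 lower. Among all genes with a value, 49.3% were higher. A gene was called higher or lower when its log2 LN/HN was past 0.32 in either direction, the smaller of the fold thresholds that the study applied to its arrays. Past this threshold, 10 members were higher and none was lower. Over all genes, 8.85% were past the threshold higher and 9.11% past the threshold lower. The median log2 LN/HN of the members was 0.16, against -0.0033 for all genes. The 10 genes were *ACAT2*, *HMGCS1*, *IDI1*, *SQLE*, *CYP51A1* and *MSMO1* of sterol synthesis, the regulator gene *SREBF2*, and *ACACA*, *SCD* and *ELOVL6* of fatty acid synthesis. Only *SQLE* was past 2-fold, a size reached by 0.997% of all genes in either direction. It passed narrowly, from 1 probe, and was short of 2-fold in the authors' normalized values (log2 LN/HN 0.95). The counts moved with the background correction, the scaling of the arrays and the filter on dim probes. With only probes well above background on both arrays, 9 members were past the threshold higher, without *SREBF2*, against 8.12% of all genes. After the normexp correction, which starts from the median pixel signal and adds a constant, only *SQLE* and *CYP51A1* were past the threshold higher, against 1.62% of all genes. With the 75th percentile of each array subtracted, 8 members were past the threshold higher and none lower, against 6.00% and 13.6% of all genes.

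**Figure D1:**
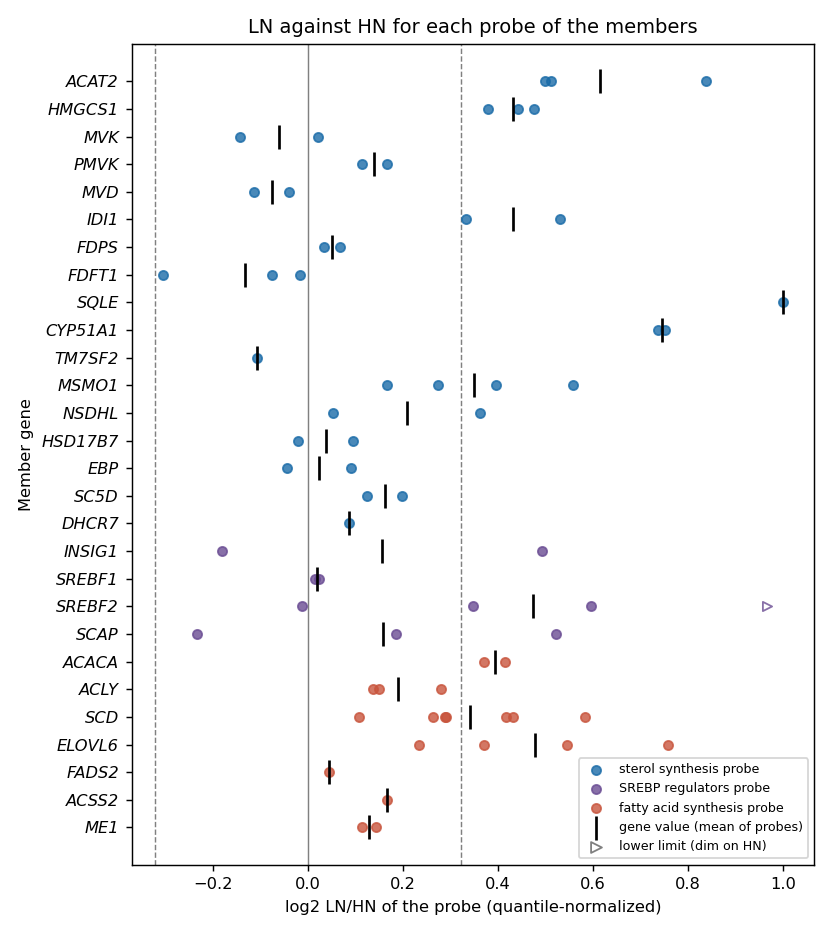
Each point is the log2 LN/HN of 1 probe (x axis) of the member gene on the y axis, colored by branch. Black bars are gene values, the open triangle is a lower limit from a probe dim on the HN array, and dashed lines mark the threshold. All 20 fatty acid synthesis probes measured on both arrays lie to the right of 0, whereas sterol synthesis probes lie on both sides.

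Sterol synthesis begins with the condensation of acetyl units, and both members of these first steps were higher in the LN pool. *ACAT2*, the cytosolic thiolase that forms acetoacetyl-CoA, has 3 probes with log2 signals of 5.24, 5.11 and 2.87 in HN and 5.74, 5.62 and 3.71 in LN. Its log2 LN/HN was 0.62 (1.53-fold), and all of its probes were past the threshold. *HMGCS1*, which adds the next acetyl unit to give HMG-CoA, had log2 signals of 8.80, 7.06 and 4.56 in HN and 9.24, 7.44 and 5.03 in LN. Its probes differed little among themselves, from 0.38 to 0.48, and the gene value was 0.43 (1.35-fold).

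The enzymes that turn mevalonate into isoprenoid units did not move together. *MVK*, which phosphorylates mevalonate, had log2 signals of 12.77 and 5.28 in HN and 12.63 and 5.30 in LN, a log2 LN/HN of -0.060. *PMVK*, the next kinase, had a log2 LN/HN of 0.14 (9.21 and 5.87 in HN, 9.32 and 6.03 in LN). *MVD*, the decarboxylase that yields isopentenyl diphosphate, had a log2 LN/HN of -0.076 (7.94 and 9.73 in HN, 7.83 and 9.69 in LN). These values are all within the error of the software for 1 probe. *IDI1*, which isomerizes isopentenyl diphosphate to its reactive form, had log2 signals of 8.78 and 6.60 in HN and 9.12 and 7.13 in LN. Its log2 LN/HN was 0.43, and both of its probes were past the threshold higher.

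The steps from isoprenoid units to squalene were near 0. *FDPS*, the farnesyl diphosphate synthase, had log2 signals of 11.48 and 9.07 in HN and 11.52 and 9.13 in LN, a log2 LN/HN of 0.051. *FDFT1*, which joins farnesyl units to squalene, had a log2 LN/HN of -0.13, the lowest among the members. Its probes gave -0.31, -0.075 and -0.016, the first of them from the dimmest probe, with log2 signals of 5.46 in HN and 5.16 in LN.

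*SQLE* and *CYP51A1*, which act in the epoxidation of squalene and the demethylation of lanosterol, had the highest values of the members. *SQLE*, the squalene epoxidase and a rate-limiting enzyme of the pathway, had a log2 signal of 9.46 in HN and 10.46 in LN from its only probe. Its log2 LN/HN was 1.00 (2.0-fold), the 138th highest of 19554 genes. *CYP51A1*, the lanosterol demethylase, had log2 signals of 7.66 and 5.88 in HN and 8.40 and 6.63 in LN. Its probes gave 0.74 and 0.75, a gene value of 0.74 (1.68-fold, the 356th highest). *MSMO1*, the sterol methyl oxidase of the following steps, has 4 probes, with log2 signals of 10.14, 6.77, 6.51 and 5.91 in HN and 10.70, 7.17, 6.79 and 6.08 in LN. All of them were higher in LN, from 0.17 to 0.56, and 2 were past the threshold. The gene value of 0.35 lies close to the threshold, and was just short of it with the 75th percentile subtracted.

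The other enzymes of sterol synthesis were within the threshold. *TM7SF2*, a sterol reductase, had log2 signals of 7.14 in HN and 7.03 in LN (log2 LN/HN -0.11, 1 probe). *NSDHL*, the dehydrogenase that acts with *MSMO1*, had a log2 LN/HN of 0.21, but its probes differed (0.054 and 0.36). *HSD17B7* and *EBP*, a keto-reductase and a sterol isomerase, had values of 0.038 and 0.024, each with 1 probe on either side of 0. *SC5D*, the desaturase that precedes the final reduction, had log2 signals of 9.05 and 7.69 in HN and 9.17 and 7.89 in LN (0.16). *DHCR7*, which reduces 7-dehydrocholesterol to cholesterol, had log2 signals of 8.72 in HN and 8.81 in LN (0.086, 1 probe). Sterol synthesis as a whole had 17 genes with a value, 13 higher and 4 lower, with 6 past the threshold higher (35.3%, against 8.85% of all genes) and none past it lower.

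The regulators differed by gene and by probe. *SREBF2* had a log2 LN/HN of 0.47, a value that rests on the choice of probes. Its log2 signals were 14.74, 9.93, 3.75 and 2.41 in HN and 14.73, 10.28, 4.34 and 3.37 in LN. The brightest probe gave -0.012 and the others 0.35, 0.60 and at least 0.97, the last a limit because the probe was not well above background on the HN array. With probes well above background on both arrays, the value was 0.31 and no longer past the threshold. *SREBF1* had log2 signals of 7.17 and 4.52 in HN and 7.18 and 4.55 in LN, a log2 LN/HN of 0.019, which was -0.046 with the 75th percentile subtracted, -0.011 without normalization and -0.082 after normexp. *SCAP*, the escort of the SREBPs, had probes of -0.23, 0.19 and 0.52 (8.53, 10.65 and 3.65 in HN, 8.29, 10.84 and 4.17 in LN) and a mean of 0.16. *INSIG1*, a retention protein that is itself a target of the SREBPs, had probes on both sides of 0. The brighter one went from 7.51 in HN to 8.01 in LN (0.49) and the dimmer one from 4.48 to 4.30 (-0.18), with a mean of 0.16.

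All 7 fatty acid synthesis genes with a value were higher in the LN pool, and 3 of them were past the threshold (42.9%, against 8.85% of all genes). None of their 20 probes measured on both arrays was lower. *ACLY*, which cleaves citrate to acetyl-CoA, had log2 signals of 10.14, 9.79 and 4.02 in HN and 10.42, 9.93 and 4.17 in LN, a log2 LN/HN of 0.19. A further *ACLY* probe, too dim in LN for a fold, had measured log2 signals of 2.61 in HN and 2.21 in LN, and the gene value was 0.042 in 3 alternatives that counted it. *ACSS2*, which makes acetyl-CoA from acetate, the main lipogenic precursor of ruminants, had log2 signals of 9.84 in HN and 10.01 in LN (0.17), and its other probe was dim on the LN array. *ME1*, the malic enzyme that supplies NADPH, had log2 signals of 6.43 and 5.68 in HN and 6.58 and 5.80 in LN (0.13). These suppliers of carbon and reducing power were thus within the threshold.

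The enzymes that build, elongate and desaturate the chain had higher values, except *FADS2*. *ACACA*, the acetyl-CoA carboxylase that forms malonyl-CoA, had a log2 LN/HN of 0.39 from dim probes, with log2 signals of 3.91 and 3.06 in HN and 4.28 and 3.48 in LN. It was 0.088 after normexp, 0.23 with the 75th percentile subtracted and 0.27 without normalization, all short of the threshold, and 0.78 in the 2 alternatives that also counted its dimmest probe. *ELOVL6*, which elongates palmitate to stearate, had log2 signals of 6.63, 6.43, 5.95 and 2.80 in HN and 7.01, 6.66, 6.50 and 3.56 in LN. Its log2 LN/HN was 0.48 (1.39-fold), and 3 of its 4 detected probes were past the threshold. *SCD*, the stearoyl-CoA desaturase that makes oleate, has 7 probes, the most among the members. Their log2 signals were 11.95, 11.83, 9.20, 9.12, 8.78, 7.60 and 5.44 in HN and 12.38, 12.24, 9.49, 9.40, 8.89, 7.86 and 6.02 in LN. All were higher in LN, from 0.11 to 0.58, with a mean of 0.34 ± 0.15 (SD over probes) that lies just past the threshold. The median of its probes was 0.29, short of the threshold. *FADS2*, a desaturase of polyunsaturated fatty acids, had log2 signals of 10.19 in HN and 10.24 in LN (0.044, 1 probe).

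**Figure D2:**
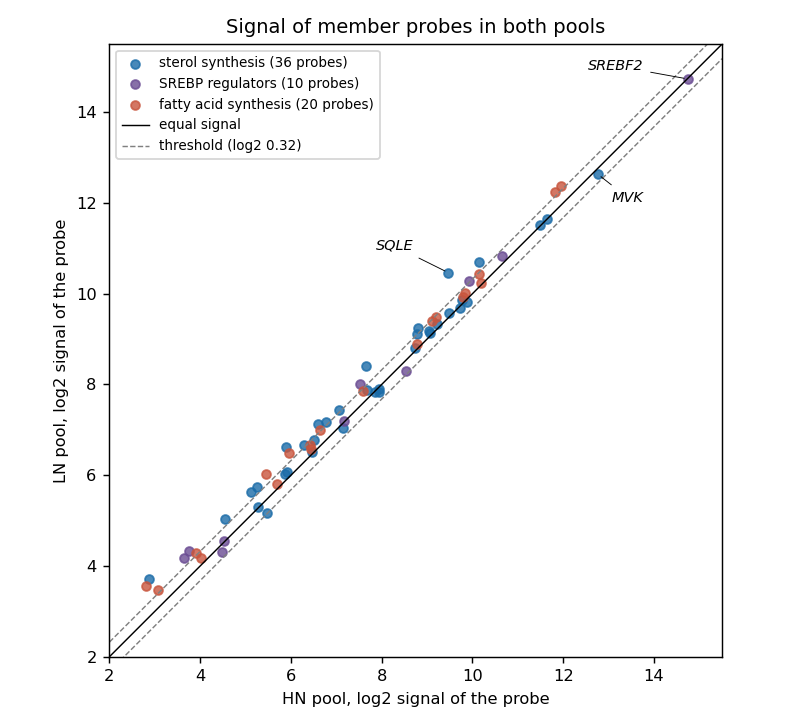
Log2 signal of the 66 member probes measured on both arrays in the HN pool (x axis) and the LN pool (y axis), colored by branch, with the line of equal signal and dashed lines at the threshold. Points above the upper dashed line occur over most of the range of signal, and none lies below the lower one.

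Dim probes vary more than bright ones, so the member probes were also set beside all probes of similar signal. Of the 66 member probes measured on both arrays, 54 were higher in LN, against 15634 of all 30639 such probes. Past the threshold, 26 were higher and none was lower, against 8.59% and 8.31% of all. When these probes were split by signal into 4 groups of equal size, 5 of 13 member probes were past the threshold higher in the brightest group, against 2.68% of all. In the dimmest group it was 7 of 10, against 19.6%. In the groups between, it was 10 of 21 against 7.96%, and 4 of 22 against 4.07%. Probes of the same gene share their RNA and are not replicates. Of the 23 members with at least 2 probes giving a fold, every probe was past the threshold higher in 5, namely *ACAT2*, *HMGCS1*, *IDI1*, *CYP51A1* and *ACACA*. This was so in 2.20% of all 7460 such genes.

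The sterol branch was compared with the fatty acid branch. The median log2 LN/HN was 0.14 for sterol synthesis and 0.19 for fatty acid synthesis, a difference of -0.049 that was not tested. It ranged from -0.18, with the brightest probe of each gene, to 0.016 after normexp, and the sterol median was the lower in 11 of the 12 alternatives. These alternatives reprocess the same arrays and overlap, so their number does not measure support. No member spot was flagged, and keeping flagged spots left the difference at -0.049. Sterol genes ranged from -0.13 to 1.00 with a mean of 0.23 ± 0.32 (SD, n = 17 genes), and fatty acid genes from 0.044 to 0.48 with a mean of 0.25 ± 0.16 (SD, n = 7 genes), a difference in spread that was not tested. The 4 members lower in LN, *MVK*, *MVD*, *FDFT1* and *TM7SF2*, were all sterol genes, and so were the 3 highest, *SQLE*, *CYP51A1* and *ACAT2*. The medians of the sterol, regulator and fatty acid genes were above 0 in all 12 alternative settings.

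Other genes of these pathways were examined in 6 lists of 78 genes, of which 67 had a value. Of these, 4 were past the threshold higher (5.97%, against 8.85% of all genes) and 1 was past it lower (1.49%, against 9.11%), with a median log2 LN/HN of 0.030. In the processing and turnover of SREBPs and INSIG, 4 of 7 genes were higher (57.1%, against 49.3% of all genes) and 3 lower, with a median of 0.020. None of the 7 was past the threshold, against 8.85% of all genes past it higher and 9.11% past it lower. *SEC24A*, a coat protein of vesicles leaving the endoplasmic reticulum, had a log2 LN/HN of 0.27, and *UBXN8* of 0.23, while *MBTPS1*, a protease that cleaves SREBPs, had -0.22 and was named after its value was seen. In the mevalonate branch that leads to dolichol, ubiquinone and prenylated proteins, 7 of 10 genes were higher (70%, against 49.3% of all genes). None of the 10 was past the threshold. The median of this branch was 0.14, and *PDSS1* and *PDSS2*, which make the side chain of ubiquinone, both had values of 0.28. Given the shares of all genes past the threshold, lists of 7 and 10 genes are too short for a count of none to set them apart.

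Among 16 genes of cholesterol transport and targets of the liver X receptors, 3 were past the threshold higher (18.8%, against 8.85% of all genes) and none lower, with a median of 0.044. *ABCA1*, the exporter of cholesterol, had log2 signals of 6.12 in HN and 6.55 in LN (0.43). *CH25H*, which makes 25-hydroxycholesterol, had signals of 6.48 and 6.97 (0.49), and *LRP8*, a lipoprotein receptor, of 2.48 and 2.98 (0.50) from a dim probe. Each of these values came from 1 probe. These calls depended on the processing. *ABCA1* was 0.22 after normexp, short of the threshold. *LRP8* was short of it in 7 of the 12 alternatives, with values from 0.054 after normexp to 0.30 without normalization. *CH25H* was -0.21 without a filter on dim probes and with the filter on positive and significant signals, when its other probe also counts.

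In the list of carbon and NADPH supply, 4 of 11 genes were higher (36.4%, against 49.3% of all genes) and none was past the threshold. The values furthest from 0 were those of *ACACB*, the acetyl-CoA carboxylase of mitochondria (-0.24, with probes that disagreed, from -1.54 to 0.66), and *ACSS1*, the mitochondrial acetyl-CoA synthetase (-0.19). *THRSP*, a gene associated with lipogenesis, had a log2 LN/HN of -0.17, and *MLXIPL*, which encodes the carbohydrate-responsive factor ChREBP, of 0.15. In elongation and desaturation, 1 of 10 genes was past the threshold higher and 1 lower, against 8.85% and 9.11% of all genes. *ELOVL5* was higher (0.36, from 8.53 in HN to 8.90 in LN) and *ELOVL7* lower (-0.38, with probes of -0.50 and -0.25), and the 8 others with a value were within the threshold. *ELOVL5* was 0.16 without a filter on dim probes and with the filter on positive and significant signals, and *ELOVL7* was -0.16 after normexp and -0.25 with its brightest probe, all within the threshold. In glycerolipid assembly, 7 of 13 genes were higher (53.8%, against 49.3% of all genes) and none was past the threshold, and the values furthest from 0 were those of *LPIN1*, a phosphatidate phosphatase (-0.30), and *AGPAT2*, an acyltransferase (0.23).

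**Figure D3:**
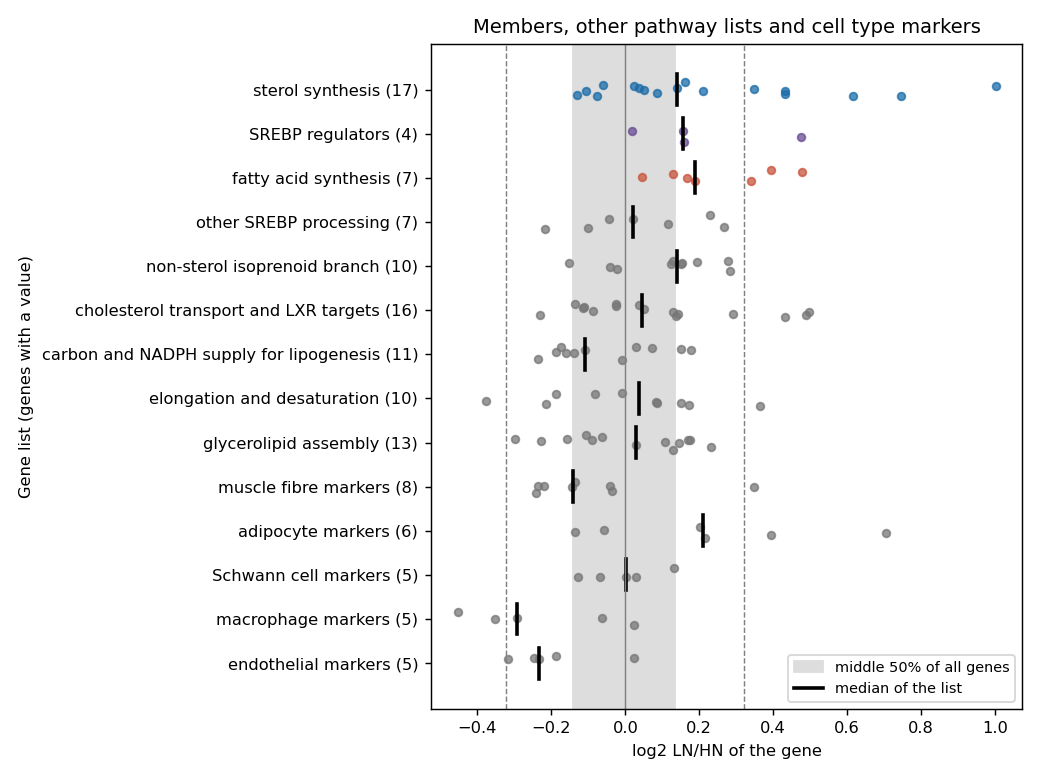
Log2 LN/HN of each gene (points, x axis) in the member branches, the other pathway lists and the marker lists (y axis, with the number of genes with a value). Black bars are medians, the grey band is the middle 50% of all genes and dashed lines mark the threshold. The 3 member branches have medians of 0.14, 0.16 and 0.19, the non-sterol isoprenoid branch has 0.14 and the adipocyte markers 0.21, and the band shows the spread of single genes, not of medians.

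In a piece of muscle, more cells of a type and more RNA per cell cannot be told apart, so markers of other cell types were measured. Of 9 adipocyte markers, 7 were matched and 6 detected, with *LEP* not well above background on either array. Their summed signal was 904 in HN and 1071 in LN, a log2 LN/HN of 0.24. *FABP4*, the fatty acid binding protein of adipocytes, had a log2 LN/HN of 0.39, while *PLIN1*, the lipid droplet protein, had a value of -0.14. *RETN* had a value of 0.70 from dim probes of 0.064 and 1.34, with log2 signals of 3.93 and 2.56 in HN. The *RETN* value was 0.11 after normexp and 0.064 with the brightest probe, both short of the threshold. Of 6 markers of Schwann cells, which make much cholesterol for myelin, 5 were detected, with a summed signal of 3119.8 in HN and 3155 in LN (log2 LN/HN 0.016). The summed signal of muscle fiber markers had a log2 LN/HN of -0.12 (8 of 9 detected). For macrophages it was -0.31 (5 of 6 detected) and for endothelial cells -0.27 (5 of 5 detected). The part of these cell types in the values of the members was not tested.

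**Figure D4:**
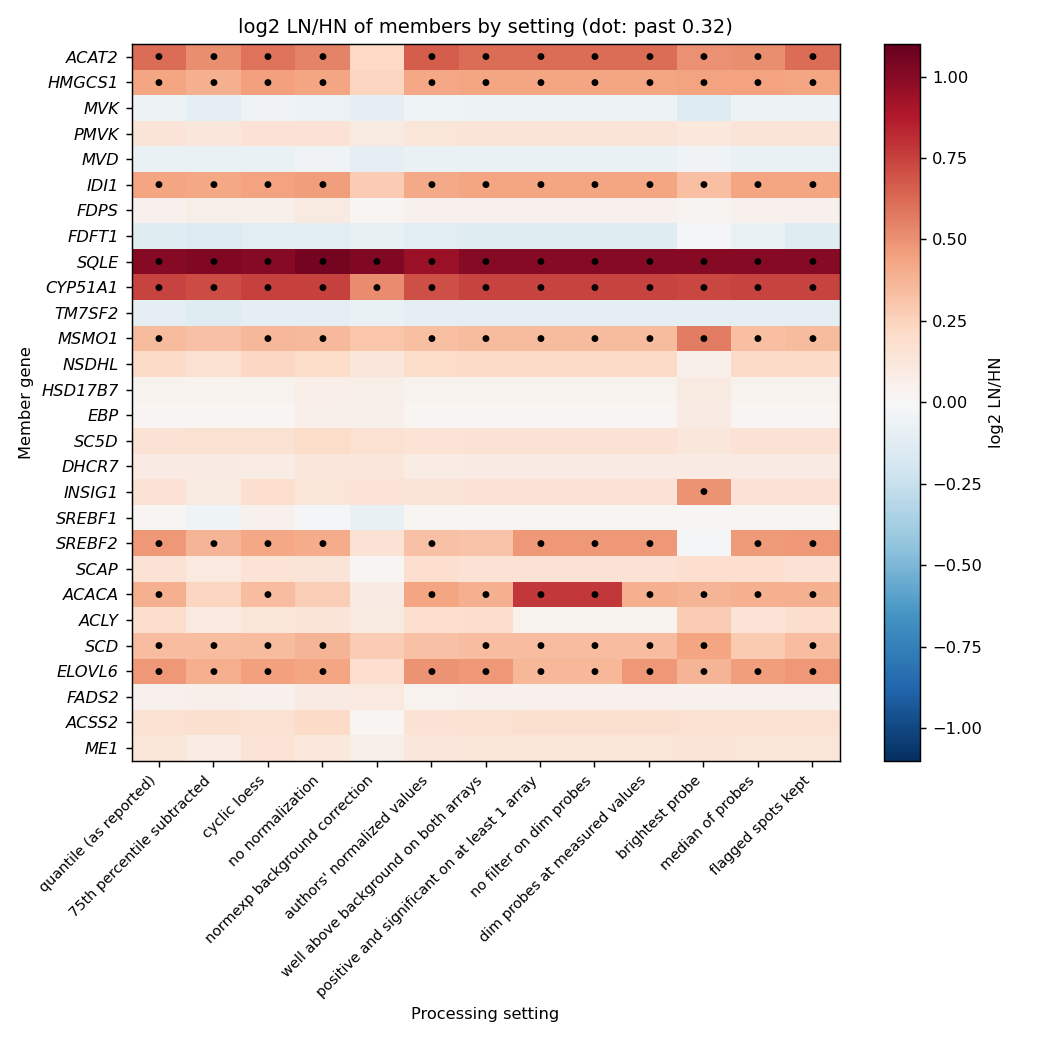
Log2 LN/HN (color) of the 28 members with a value (y axis) under the processing as reported and 12 alternative settings (x axis), with a dot where a gene is past the threshold. *SQLE* and *CYP51A1* have a dot in every setting, and the normexp background correction leaves no other dot.

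Over the settings, *SQLE* ranged from 0.95 to 1.05 and *CYP51A1* from 0.52 to 0.76. *ACAT2*, *HMGCS1*, *IDI1* and *ELOVL6* were past the threshold in 11 of the 12 alternatives, *MSMO1* in 10, and *SREBF2*, *ACACA* and *SCD* in 9. Normexp was the only exception for *ACAT2*, *HMGCS1*, *IDI1* and *ELOVL6*, while *MSMO1*, *SREBF2*, *ACACA* and *SCD* also fell short in other settings. For *SCD* these were the median of probes and, narrowly, the authors' normalized values. After normexp, values were 0.22 for *ACAT2*, 0.24 for *HMGCS1*, 0.28 for *IDI1*, 0.31 for *MSMO1*, 0.28 for *SCD*, 0.19 for *ELOVL6*, 0.088 for *ACACA* and 0.16 for *SREBF2*. These genes kept the direction of higher in LN under normexp.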

How the data were processed

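Pooled total RNA of the LT muscle was measured on 1 Agilent Bovine (v2) array for each of the LN and HN groups. The authors extracted spot intensities with Feature Extraction 11.0.1.1, deposited as background-subtracted, detrended intensity values without normalization between arrays. They also deposited log2 values from GeneSpring GX, normalized by quantiles (30027 probes, median 8.03 in both columns, log2 scale as judged from the values), used as an alternative and holding 66 of the 72 member probes. In the deposited files, software flags of other units mark outliers and spots well above background.

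Log2 intensities of 43803 non-control spots were quantile-normalized with limma 3.58.1 in R 4.3.3, the method that the study names. Spots with an outlier flag (13, none of a member) were removed, and spots of a probe were averaged. No spot was saturated. Detection required the software's mark for a signal well above background in HN or LN. Where only 1 pool had the mark, the signal of the other was replaced by the dimmest marked signal of its array (log2 2.27 for HN, 2.82 for LN) unless its own was higher, and a bright signal that did not exceed this gave no fold. Symbols came from the accessions, without versions, in a RefSeq gene table (assembly ARS-UCD2.0), which named 26742 of 43652 probes. An accession without a symbol was kept as a gene of its own. The array design refers to another assembly, so no coordinates are given. Tables were handled with Python 3.11.15, pandas 2.3.3 and numpy 2.4.6, and figures were drawn with matplotlib 3.10.9.

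Each group is 1 array, so no test was made, and lists are described by counts and medians beside those of all genes. The number of arrays limits the precision. The calculation was tested on simulated data with the same detection marks on both arrays and noise of equal size at all signals. The rules for probes dim on 1 array and the normexp correction were therefore not tested. All 33 members are named. Of the other pathway lists, the genes past the threshold are named, or the pair furthest from 0 where none was, and *THRSP*, *MLXIPL* and *MBTPS1* were added after their values were seen. The members and lists were chosen with earlier results of these data known. The 14 lists were written by hand. From these, 1 gene of a pathway list and 1 marker are not reported here and were left out of all counts over the lists. There were 12 alternatives, covering normalization, background correction, the filter and limit for dim probes, the value of a gene, outlier flags and the deposited log2 values. The normexp correction used the median pixel signal of each spot, with an offset of 50.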

Additional observations from a re-analysis of the deposited data

How the results depend on the processing

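The direction of the sterol, regulator and fatty acid medians was the same in all 12 alternatives. The count of members past the threshold of 0.32 higher was 2 after the normexp background correction, which also started from another signal column, and 8 to 10 in the others, while the count past it lower was 0 in each. The fatty acid median was 0.096 after normexp and 0.28 with the brightest probe of each gene, a setting in which the sterol median minus the fatty acid median was -0.18 and *SREBF2* changed to -0.012. The cause of these shifts was not tested. With the 75th percentile of each array subtracted, 30.7% of all genes past it were higher in LN, against 49.3% as reported, and the median of all genes was -0.042. No paired analysis was possible because each group is 1 array of pooled RNA. For the same reason no replicate could be left out, and differences between fetuses cannot be seen at any signal. Of the 72 member probes, 2 were not detected and 3 were detected on 1 array without a fold, so that *LSS* has no value.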
